A study of Mus musculus with 6 samples.

Results

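The comparison described here is between DN1a/b thymocytes in which RBPJ had been switched back on for 6 days and DN1a/b thymocytes in which it had not. It uses 4 of the 6 RNA sequencing libraries of the study, taken by their group labels: 2 from RBPJ uninduced mice and 2 from RBPJ 6 days induced mice. All animals were C57BL/6 mice, and the cells were sorted by flow cytometry from the thymus. By the labels, both compared groups were deficient in RBPJ before induction; Rbpj counts were still present in the uninduced libraries, at 28.2 and 30.0 CPM (scaled counts). In the induced group RBPJ was turned on with doxycycline, injected as a 2 mg/ml solution and followed by drinking water with 1 mg/ml. The other 2 libraries came from Control mice, which kept RBPJ throughout, and their levels are given beside the others only as a reference. The sources used here do not state the alleles, the driver of the inducible RBPJ, the age of the mice or the number of mice per library. They also do not state whether uninduced or Control mice were given doxycycline, so what RBPJ did and what the drug did cannot be told apart in this comparison. Nothing states that replicate libraries were from different animals, so the tests measure only the spread between these libraries. The uninduced pair differed in sex-linked RNA, as given below, and elsewhere the spread may be technical.

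RBPJ is the DNA-binding partner of the Notch receptors. When a ligand on the thymic stroma engages a Notch receptor, the released intracellular part of the receptor joins RBPJ and a Mastermind coactivator on DNA and turns target genes on; without the receptor fragment, RBPJ can hold the same genes down. Notch1 signalling starts the T-cell programme in the progenitors that seed the thymus, and the DN1a/b fraction (the Kit-bright part of the most immature CD4-negative, CD8-negative cells) holds those progenitors before they commit to the T lineage and while they can still give rise to other blood cells.

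Levels are given as CPM (counts scaled to a common library size after TMM normalisation, the trimmed mean of M-values), and for each gene the uninduced libraries come first. A gene is called higher or lower where edgeR's quasi-likelihood test gave a Benjamini-Hochberg adjusted p below 0.05 over all genes tested, and log2 fold changes are induced over uninduced. The libraries held 5098927 and 10918205 counts in the uninduced group and 11090902 and 11240828 in the induced group. The uninduced libraries differed more from each other than the induced ones, with a median absolute log2 difference over genes of 0.54 against 0.26. Uninduced replicate 2 carried more RNA of B-lineage genes and of late granulocyte genes such as S100a9 (0 and 54.4 CPM), and mitochondrial ribosomal RNA took 16.5% of its counts against 10.2% to 12.4% in the other 3. Kit, which defines the sorted cells, was high in all of them at 630 and 398 CPM without and 618 and 631 CPM with induction. Of the mature T-cell genes, Cd3d, Cd8a and Cd8b1 stayed at or below 3.01 CPM in all 4, Cd4 reached 8.57 and Cd3e 5.40 CPM after induction, and 4 of 13 tested later thymocyte markers rose. Every library held transcripts of the X-linked Xist and of Y-linked genes, but in unequal amounts. Xist stood at 2067 and 497 CPM without and 1559 and 1945 CPM with induction. The Y-linked Kdm5d stood at 4.52 and 40.9 against 25.8 and 20.7 CPM, and Uty, Ddx3y and Eif2s3y were also higher in uninduced replicate 2 than in replicate 1. The part of this difference in other results was not tested.

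Rbpj itself (ENSMUSG00000039191, GRCm38 chromosome 5, 53466152 to 53657362, plus strand) stood at 28.2 and 30.0 CPM without and at 198 and 203 CPM with induction, against 74.1 and 72.9 CPM in Control. The groups were well separated, and the induced level lay above that of Control. The rise was 6.89-fold (2.78 on the log2 scale, SE 0.19, edgeR quasi-likelihood adjusted p = 0.000507). The processed pseudogene Rbpj-ps3, a near-identical copy on chromosome 6, held 6 and 4 counts without and 778 and 815 counts with induction, and reads of the 2 genes cannot be separated at the level of gene counts. With the Rbpj pseudogene counts added to those of Rbpj the log2 fold change was 3.19. Which exons are missing without induction is not stated in the labels, so the remaining counts are no measure of intact transcript.

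Of 18174 genes tested, 282 were higher after 6 days of induction, 1.55% of all tested, and 75 were lower, 0.413%, which makes 1.96% in either direction. The counts of calls in the gene lists below are to be read beside these shares, at which short lists hold few or no calls. Among called genes, the higher ones had the larger changes. Their median log2 fold change was 1.88 and 131 changed more than 4-fold, against -1.16 and 2 genes among the lower ones. This contrast does not cover uncalled genes: over all genes tested, log2 fold changes ran from -8.47 to 10.74 and 2504 passed 4-fold. Of the higher calls, 9 had no counts in either uninduced library, Sema3d and Fasl among them. Those met the count filter only through the induced or Control libraries and could not have fallen. The median over all genes tested was -0.03. Protein-coding genes made up 248 of the higher and 74 of the lower calls. At an unadjusted p under 0.05 the counts were 1547 higher and 1260 lower. The genes nearest the threshold were Gimap1 (adjusted p = 0.0487) and Ust (0.0499) just inside it, and Flt3 and Actn2 (both 0.0501) just outside.

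**Figure D1:**
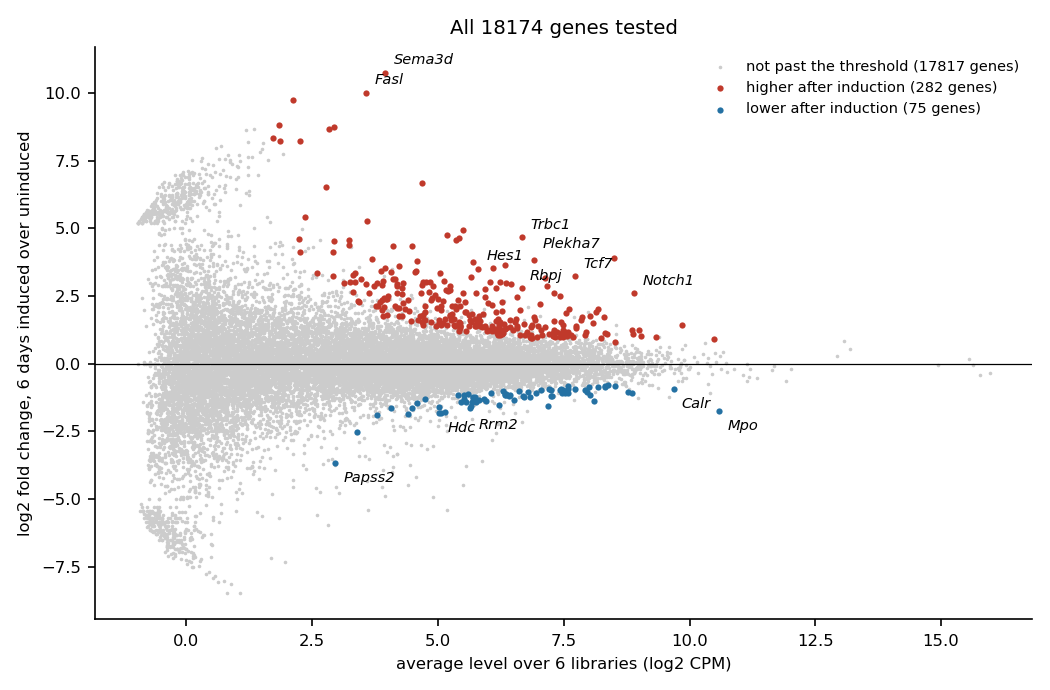
Log2 fold change, 6 days induced over uninduced, against the average level over the 6 libraries (log2 CPM), 1 point per gene tested. The 282 genes called higher (red) reach further from 0 than the 75 called lower (blue); fitted values of genes with no counts in the uninduced libraries, such as Sema3d and Fasl, depend on an added prior count and are no measure of size.

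The precision of these calls was uneven. In a fit of the 4 compared libraries alone, which has fewer libraries to estimate the spread from, 70 genes were higher and 1, E2f8, was lower. Among the 106 genes past the threshold that the naming rule selects, 46 of the 67 higher ones passed in every fit that left out 1 library. None of the 39 lower ones did: 38 missed the threshold without induced replicate 1 and 37 without induced replicate 2, with no change of direction. In all genes, the counts were 156 higher and 15 lower without induced replicate 1, 198 and 16 without induced replicate 2, 825 and 549 without uninduced replicate 1, and 951 and 234 without uninduced replicate 2. The lower calls below are to be read with that dependence on the induced libraries.

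Among 12 tested Notch target genes, 4 rose and none fell; their median was 1.75 on the log2 scale, beside -0.03 over all genes. Notch1, the receptor that drives T-lineage entry and is itself a Notch target, went from 97.7 and 68.8 to 520 and 484 CPM, below the 924 and 782 CPM of Control. Notch1 thus changed by 2.59 on the log2 scale (SE 0.21, edgeR adjusted p = 0.000951). Hes1, a repressor of competing programmes, rose from 1.39 and 6.80 to 53.1 and 45.6 CPM (3.50, SE 0.51, adjusted p = 0.0124), and stood at 132 and 95.0 CPM in Control. Nrarp, a feedback inhibitor that limits the Notch complex, rose from 4.87 and 9.03 to 29.1 and 28.8 CPM (2.04, SE 0.41, adjusted p = 0.0407), above its 21.8 and 14.3 CPM in Control. Notch3, a receptor induced by Notch1 signalling, rose from 0.869 and 1.23 to 8.57 and 11.6 CPM (3.23, SE 0.62, adjusted p = 0.035). In these 4 genes no induced library overlapped an uninduced one, as in all 282 genes called higher. Of all genes tested, 46.6% did not overlap in either direction.

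The other Notch targets did not pass, and their log2 fold changes lay on both sides of 0. Dtx1, a ubiquitin ligase of the pathway, stood at 0 and 12.7 CPM without and 51.0 and 25.2 CPM with induction (adjusted p = 0.28). Il2ra, the CD25 chain that appears at the next thymocyte stage, stood at 0.522 and 23.5 CPM without and at 29.0 and 38.5 CPM with induction (adjusted p = 0.528). Both were higher in each induced library than in each uninduced one, but the uninduced libraries disagreed with each other. Hey1 was at 0 and 1.45 against 6.36 and 3.73 CPM (adjusted p = 0.341). Myc, a growth regulator and Notch target in later thymocytes, was at 309 and 243 against 227 and 240 CPM (-0.24 on the log2 scale, adjusted p = 0.718). Hes6 was at 16.5 and 24.3 against 13.4 and 17.1 CPM (-0.42 on the log2 scale, adjusted p = 0.63). Hes5, Heyl and Hey2 were at log2 fold changes of -3.70, -1.85 and -0.24, none past the threshold. These 3 genes did not exceed 4.24 CPM in any of the 4 libraries. The number of targets called higher was 2 without either induced library, 7 without uninduced replicate 2 and 1 in the fit of the 4 compared libraries. Nrarp and Notch3 were the members lost without an induced library, at adjusted p-values between 0.0802 and 0.168.

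**Figure D2:**
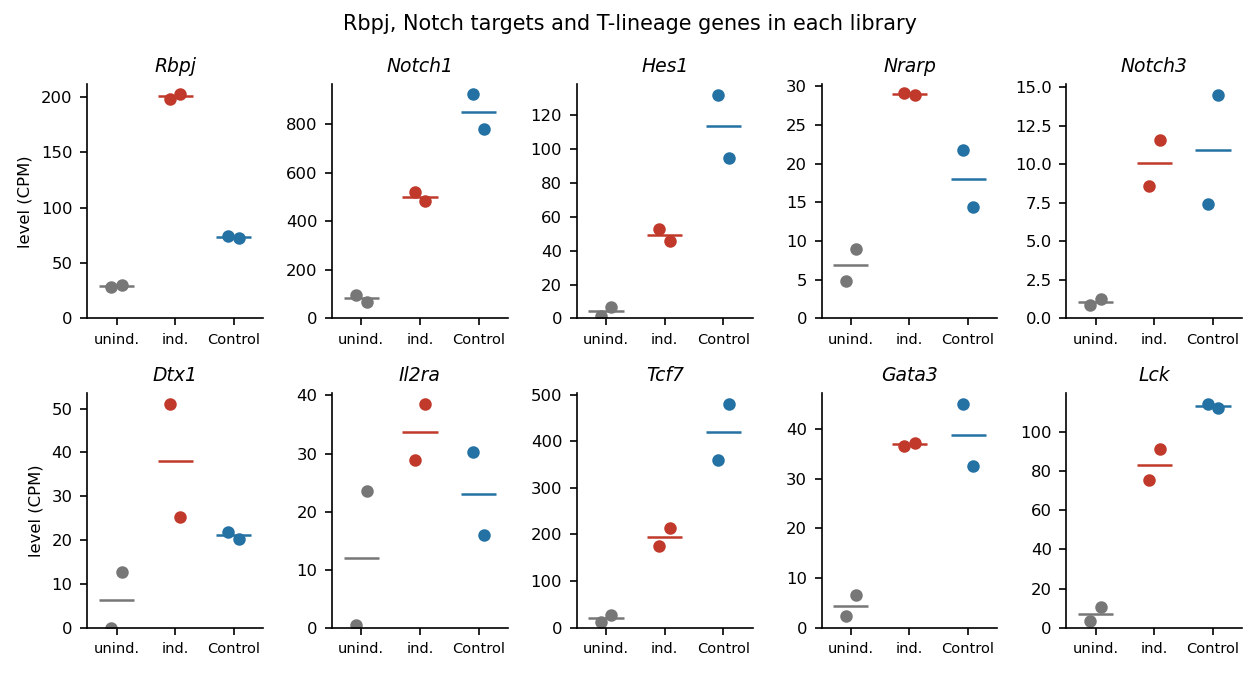
Level in CPM (linear axes from 0) of Rbpj, Notch targets and T-lineage genes in each library, with dots for single libraries and bars for the mean of 2. Rbpj overshot its Control level after induction (198 and 203 against 74.1 and 72.9 CPM), while Notch1, Hes1 and Tcf7 lay between the uninduced and Control levels; the uninduced libraries disagree on Dtx1 and Il2ra.

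Of 36 tested genes of the Notch pathway machinery, 4 rose and none fell, with a median of 0.11, while 1.55% of all genes tested rose. Rbpj, the induced gene, is among the 4. Besides Rbpj, Notch1 and Notch3 the member that rose was Maml3, a Mastermind coactivator of the RBPJ complex. Maml3 went from 90.8 and 56.7 to 173 and 174 CPM (1.24, SE 0.24, adjusted p = 0.0357), with 249 and 207 CPM in Control, but missed the threshold without either induced library (adjusted p = 0.075 and 0.0573). Its relative Maml2 was at 17.4 and 13.3 against 38.9 and 31.1 CPM (adjusted p = 0.092). Notch2, the other abundant receptor, was at 259 and 292 against 292 and 293 CPM (0.09, adjusted p = 0.881). The corepressors Ncor1 and Spen, which RBPJ can bring to DNA, were at log2 fold changes of 0.01 and -0.28. The metalloproteases Adam10 and Adam17, which cut the receptor on the outer side of the membrane, were at -0.37 and 0.02.

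The promoters of the higher genes were searched for the letters that RBPJ prefers to bind. The core searched was TGGGAA, which reads TTCCCA on the other strand. The longer form was GTGGGAA, which reads TTCCCAC on the other strand and contains the core. Both were looked for on either strand of the 250 bases before each start site in RefSeq (GRCm38.p6). The core occurred in 24% of 275 promoters of genes called higher, 19.7% of 71 promoters of genes called lower and 21.6% of all 32851 promoters. The longer form occurred in 5.45%, 1.41% and 5.42% of them. In the 15027 promoters of genes tested, the shares were 20.6% for the core and 5.33% for the longer form. The share of the longer form in the higher genes lay near both backgrounds. That of the core was 24% beside 20.6% and 21.6%, a difference that was not tested. Among the Notch targets that rose, the promoters of Notch1, Notch3 and Nrarp in the table hold neither form in this window; Hes1 was not searched here. The 275 promoters of higher genes belong to 186 genes of the 282. The longer form does stand in front of 3 genes of the naming rule that rose, Slc35d3, Satb1 and Plxnb2, and in front of Hes5, a classical target that held at most 2.01 CPM in these libraries. The 31-base windows around it are printed to show the letters matched, chosen after the values were seen, each 5′ to 3′ on the strand of its gene, with the motif in capitals.
Slc35d3 (chr10:19851481-19851511, minus strand): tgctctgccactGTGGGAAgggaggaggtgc
Satb1 (chr17:51812106-51812136, minus strand): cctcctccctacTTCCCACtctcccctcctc
Plxnb2 (chr15:89180861-89180891, minus strand): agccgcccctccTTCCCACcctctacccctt
Hes5 (chr4:154960685-154960715, plus strand): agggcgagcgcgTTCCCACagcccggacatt
Hes5 (chr4:154960828-154960858, plus strand): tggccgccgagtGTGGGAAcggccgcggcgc
A match is a run of letters and not a measured binding site. Hes5 has the form on both strands within 250 bases of its start and was at 0.695 and 2.01 CPM without and 0 and 0.186 CPM with induction. Satb1 and Slc35d3, whose values follow, rose with 1 match each.

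The early T-lineage transcription factors rose in part. Of 20 tested, 5 rose and none fell, with a median of 0.18. Tcf7, which encodes the T-cell initiating factor TCF1, went from 13.0 and 27.4 to 175 and 213 CPM, with 361 and 480 CPM in Control (3.24, SE 0.33, adjusted p = 0.00305). Tox, a nuclear factor of early lymphoid and later T-cell differentiation, went from 9.04 and 5.35 to 82.8 and 95.8 CPM (3.66, SE 0.30, adjusted p = 0.000951). Gata3, required for the T lineage, went from 2.26 and 6.58 to 36.6 and 37.3 CPM, within the 45.1 and 32.5 CPM of Control (3.02, SE 0.46, adjusted p = 0.0145). Satb1, a chromatin organiser of thymocytes, went from 69.5 and 79.4 to 299 and 314 CPM (2.04, SE 0.22, adjusted p = 0.00337). Runx3, a Runt factor of T cells, rose from 94.1 and 82.1 to 178 and 170 CPM (0.98, SE 0.17, adjusted p = 0.0264). Tox, Tcf7, Satb1 and Gata3 passed in every fit that left out 1 library, and Runx3 did not pass without either induced library.

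Bcl11b and Lef1, factors of the later steps, did not pass. Bcl11b, whose start marks commitment to the T lineage, was at 5.74 and 5.68 CPM without and at 7.06 and 12.2 CPM with induction (adjusted p = 0.808). Lef1, the relative of TCF1 that follows it, was at 10.6 and 32.9 against 6.80 and 4.57 CPM (adjusted p = 0.338). The general haematopoietic factors Myb, Ikzf1 and Runx1, all above 180 CPM in each of the 4 libraries, were at log2 fold changes of -0.10, 0.09 and 0.50.

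Genes of the T-cell receptor complex and its signalling stood above their uninduced levels almost throughout, though few passed. Of 23 tested, 22 had a log2 fold change above 0 and 20 had induced levels wholly above the uninduced ones, beside 24.8% of all genes tested (21.8% lay wholly below and 46.6% did not overlap in either direction), with a median of 1.30; 4 passed and none fell. Lck, the kinase that starts receptor signalling, rose from 3.30 and 10.7 to 75.7 and 91.1 CPM (3.52, SE 0.42, adjusted p = 0.00557). Cd7, a surface protein of early T and natural killer cells, rose from 1.39 and 4.12 to 42.0 and 38.2 CPM (3.80, SE 0.52, adjusted p = 0.00866). Cd6, an adhesion receptor of T cells, rose from 0.174 and 0.223 to 8.83 and 7.64 CPM, and the adaptor gene Lcp2 rose from 86.6 and 48.1 to 158 and 184 CPM (adjusted p = 0.00517 and 0.0389). Cd27, a costimulatory receptor, was at 42.2 and 13.0 against 106 and 97.0 CPM (adjusted p = 0.0844). The CD3 chain Cd3e reached only 4.24 and 5.40 CPM from 1.04 and 0.892 (adjusted p = 0.332), and Zap70, the kinase that follows Lck, stayed at 1.85 and 1.58 CPM. Lcp2 missed the threshold without induced replicate 2 (adjusted p = 0.0744), with upper-quartile factors (0.0523), with a stricter low-count filter (0.0503) and in the fit of the 4 compared libraries (0.13).

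Transcripts of the T-cell receptor loci appeared after induction, mostly from the beta locus. The summed level of 39 annotated beta genes and segments was 8.69 and 9.25 CPM without and 169 and 189 CPM with induction, against 525 and 397 CPM in Control. Of 21 that could be tested, 7 rose and none fell, and 2 passed in the fit of the 4 compared libraries. Many of the 21 had no counts in either uninduced library and met the count filter only through the induced or Control libraries. Those could not have fallen, so the lack of lower calls in this list carries no information on them. The constant genes Trbc1 and Trbc2 led: Trbc1 went from 4.17 and 2.23 to 76.3 and 81.4 CPM (4.67, SE 0.33) and Trbc2 from 1.22 and 1.67 to 37.5 and 36.5 CPM (4.64, SE 0.31, both adjusted p = 0.000507). The other 5 calls were 1 diversity and 4 joining segments, and no variable segment passed. Trbd1 had no counts without induction and 5.48 and 5.59 CPM with it, at least 12.9-fold higher against a floor of 3 counts per library. Trbj1-4 had none without and 3.62 and 8.01 CPM with induction, at least 13.6-fold higher, and Trbj1-7, Trbj2-1 and Trbj1-5 were the other segments that rose. Variable segments stayed near the limit, Trbv13-2 being the most abundant after induction at 6.62 and 6.52 CPM (adjusted p = 0.143). The segments are short and lie close together, so their counts and those of the constant genes may come from the same transcripts.

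The gamma and delta loci showed the same kind of rise at a lower level. The gamma constant gene Tcrg-C1 went from 1.22 and 3.23 to 27.8 and 22.5 CPM, above the 17.7 and 13.4 CPM of Control (3.44, SE 0.50, adjusted p = 0.0123). Tcrg-C2 went from 0 and 0.334 to 9.45 and 8.20 CPM (adjusted p = 0.0337) but missed the threshold without either induced library (0.0962 and 0.0515). Gamma constant genes are near-identical copies, so reads may be split among them. The delta constant gene Trdc went from 0 and 1.00 to 13.6 and 10.6 CPM (adjusted p = 0.0348), and the alpha constant gene Trac stayed at 2.47 and 0.186 CPM. Dntt, the polymerase TdT that adds bases at receptor joints, rose to 250 and 243 CPM from 1.39 and 30.1 CPM, against 953 and 696 CPM in Control (3.91, SE 0.81, adjusted p = 0.0465). The low value was that of uninduced replicate 1, and without uninduced replicate 2 the Dntt log2 fold change was 7.47. The recombinase genes did not follow: Rag1 was at 10.8 and 126 against 12.9 and 17.0 CPM (adjusted p = 0.429) and Rag2 at 3.65 and 8.14 against 6.71 and 12.9 CPM (adjusted p = 0.593).

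Progenitor genes showed a mixed picture. Of 22 stem and progenitor regulators 2 rose and none fell, with a median of 0.53, and of 15 early progenitor surface markers 2 rose, with a median of 0.73. Mycn, a MYC family growth regulator, rose from 14.8 and 10.5 to 98.1 and 107 CPM (3.03, SE 0.36, adjusted p = 0.00517). Ly6a, the surface protein Sca-1, rose from 5.39 and 2.01 to 28.3 and 31.3 CPM, above the 14.6 and 6.90 CPM of Control (3.04, SE 0.56, adjusted p = 0.0305). Flt3, a cytokine receptor of lymphoid-primed progenitors, was at 56.2 and 20.7 against 176 and 149 CPM, just outside the threshold. The blood stem cell factors Gata2, Lmo2 and Tal1 did not pass and stayed far above Control: Gata2 was at 283 and 190 CPM without and 167 and 167 CPM with induction, and at 9.21 and 17.0 CPM in Control (induced over uninduced -0.50, adjusted p = 0.454). Lmo2 was at 285 and 203 against 150 and 172 CPM (adjusted p = 0.199), and at 52.5 and 58.6 CPM in Control. The early thymic progenitor factors Spi1 (PU.1), Bcl11a and Hhex were at log2 fold changes of 0.53, 0.67 and 0.53, none past the threshold.

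Cytokine receptor genes of the interleukin-18 and interleukin-17 families were among the risers. Of 37 tested cytokine receptors 4 rose and none fell, with a median of 0.68, while 1.55% of all genes tested rose. Both chains of the interleukin-18 receptor rose, Il18rap from 25.6 and 22.6 to 94.8 and 89.4 CPM (1.94, SE 0.20, adjusted p = 0.00337) and Il18r1 from 3.82 and 7.69 to 57.2 and 38.0 CPM (3.02, SE 0.44, adjusted p = 0.0129). Il17rb, which binds interleukin-25, rose from 2.78 and 1.34 to 22.0 and 26.4 CPM (3.59, SE 0.45, adjusted p = 0.0061). Il2rg, the common gamma chain, rose from 11.6 and 14.5 to 35.9 and 34.4 CPM (adjusted p = 0.0313) but missed the threshold without either induced library. Il7r, whose ligand supports thymocyte survival, was at 2.96 and 24.3 against 28.6 and 12.8 CPM (adjusted p = 0.783). The integrin gene Itgb7 rose from 9.56 and 14.7 to 51.6 and 44.0 CPM (1.97, SE 0.33, adjusted p = 0.0223), missing the threshold without induced replicate 1 (0.0525).

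The Fas ligand gene and some GTPase genes of lymphocytes also rose. Fasl, the death ligand of T and natural killer cells, had no counts in either uninduced library and stood at 9.89 and 17.8 CPM after induction, at least 32.3-fold higher, with 27.0 and 14.9 CPM in Control (edgeR adjusted p = 0.00517). Of the other natural killer and innate lymphoid genes, Klrd1 was at 0.695 and 0.557 against 8.92 and 7.92 CPM (adjusted p = 0.0625) and Klrk1 at 0.348 and 9.25 against 25.8 and 15.7 CPM (adjusted p = 0.343), while the list of 21 had a median of -0.01 and 2 calls, Fasl and Il18r1. Of 8 GIMAP genes, which encode GTPases linked to lymphocyte survival, 3 rose, with a median of 1.05. Gimap6 rose from 41.2 and 51.0 to 141 and 145 CPM (1.63, SE 0.20, adjusted p = 0.00577), and Gimap5 and Gimap1 rose from levels under 14 CPM, while Gimap3 and Gimap4 were at log2 fold changes of -0.02 and -0.20. The Gimap5 and Gimap1 calls were lost without either Control library or either induced library.

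The highest-ranked changes by size and by p were in genes with various roles. Sema3d, a secreted semaphorin, had no counts without induction and 19.3 and 26.9 CPM with it, which is at least 54.0-fold higher (adjusted p = 0.00122). Its induced values lay on either side of the 20.6 and 24.4 CPM of Control. Of 21 tested semaphorins and receptors Sema3d was joined by Plxnb2, a plexin, at 19.3 and 23.6 against 53.3 and 53.0 CPM (adjusted p = 0.0375). Plekha7, a component of cell junctions, rose from 8.17 and 7.24 to 121 and 97.1 CPM and had the smallest p of all genes (3.83, SE 0.23, adjusted p = 0.000507). Slc35d3, a predicted nucleotide sugar transporter, rose from 3.82 and 1.67 to 74.4 and 89.1 CPM, above its 57.0 and 44.9 CPM in Control (4.95, SE 0.39, adjusted p = 0.000951). Arpp21, an RNA-binding phosphoprotein of early lymphocytes, rose from 10.6 and 17.3 to 133 and 120 CPM, and Lrp1, an endocytic receptor, rose from 20.0 and 31.4 to 189 and 185 CPM. Cd33, a sialic acid receptor better known on myeloid cells, rose from 9.74 and 12.9 to 79.2 and 80.5 CPM. Scin, an actin-severing protein, rose from 62.1 and 40.7 to 266 and 318 CPM, above its 194 and 149 CPM in Control. All of these except Plxnb2 passed in every fit that left out 1 library.

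Other risers started from almost nothing. Lag3, an inhibitory receptor of T cells, went from 0.869 and 0.334 to 12.7 and 14.5 CPM. St8sia1, a ganglioside synthase, went from 0.174 and 1.23 to 16.5 and 26.8 CPM, with 95.3 and 76.4 CPM in Control. Tnfsf11, the cytokine RANKL, went from 0 and 0.780 to 12.1 and 6.80 CPM, against 28.5 and 53.6 CPM in Control. Igf2bp3, an RNA-binding protein of fetal tissues, went from 0 and 0.557 to 7.42 and 7.92 CPM. The fitted log2 fold changes of Tnfsf11 and Igf2bp3, 4.34 and 4.53, went to 9.46 and 9.16 without uninduced replicate 2, since the remaining library held no counts, so their size is poorly fixed. Robo1, a guidance receptor, was at 0.695 and 0.557 against 17.5 and 4.47 CPM and missed the threshold without induced replicate 1 (adjusted p = 0.395).

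Among the most abundant genes that rose the changes were smaller. Macf1, a giant cytoskeletal linker, went from 920 and 901 to 1656 and 1801 CPM (0.92, SE 0.16, adjusted p = 0.0233), and Utrn, utrophin, from 267 and 294 to 698 and 645 CPM (1.26, SE 0.16, adjusted p = 0.0067). Sox4, a factor of lymphoid progenitors, went from 135 and 136 to 379 and 504 CPM (1.71, SE 0.23, adjusted p = 0.00801). Ptprc, the leukocyte antigen CD45, went from 251 and 345 to 587 and 637 CPM (1.04, SE 0.19, adjusted p = 0.029). Of these Sox4 passed without each library in turn; Macf1 and Ptprc did not pass without either induced library, nor Utrn without induced replicate 1 (0.0599).

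**Figure D3:**
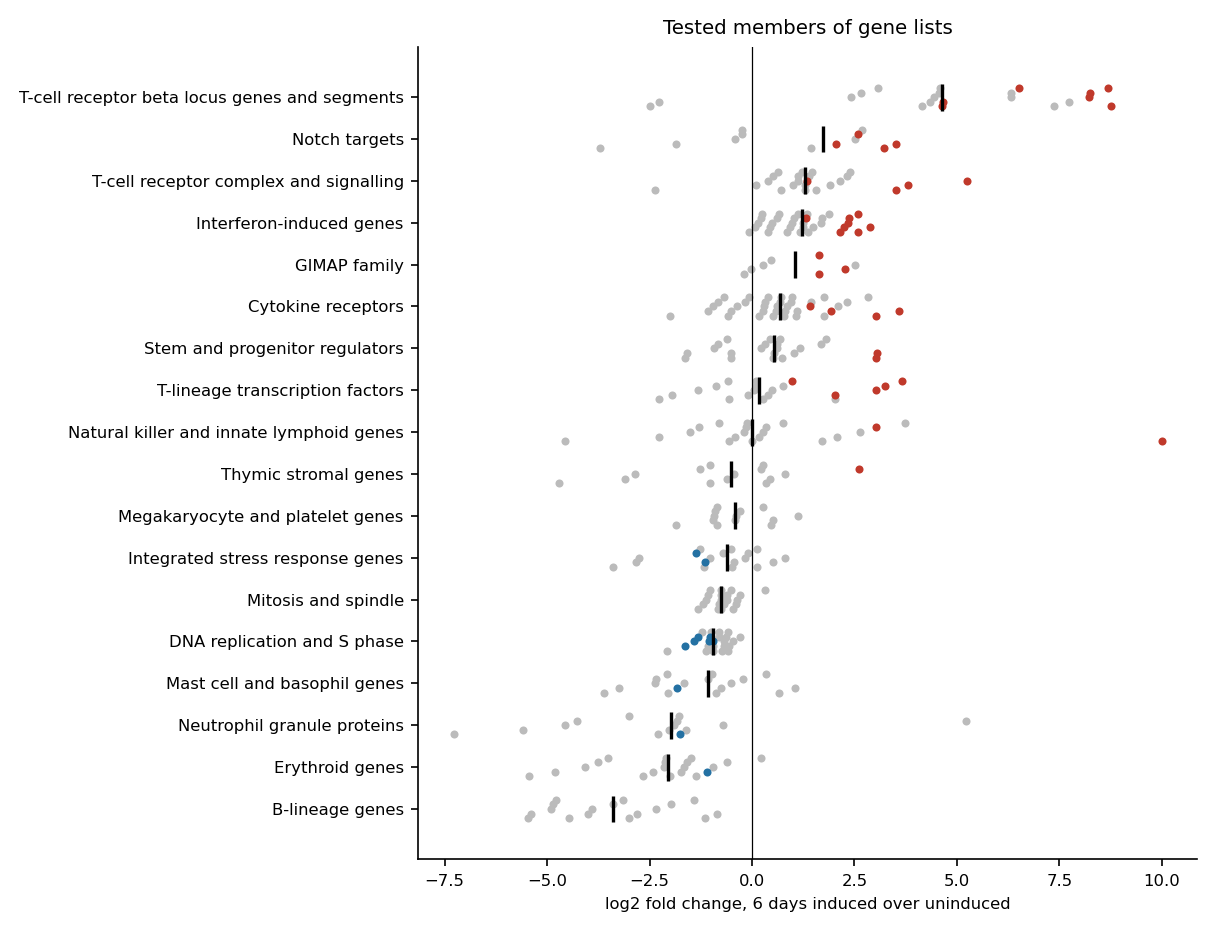
Log2 fold change, 6 days induced over uninduced, of every tested member of 18 gene lists, with red for called higher, blue for called lower, grey for neither and a black bar at each list's median. The medians of the T-cell receptor beta, Notch target and interferon lists lie to the right of 0 with several calls, all replication genes lie to the left of it, and the B-lineage and erythroid medians of -3.39 and -2.05 come with 0 and 1 calls. Many beta segments had no counts without induction and could not fall, so the place of that median was partly fixed by the count filter.

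Some interferon-induced genes rose after induction. Of 32 tested, 8 rose and none fell, 31 had a log2 fold change above 0, and in 26 both induced libraries exceeded both uninduced ones, beside 24.8% of all genes tested; the median was 1.21. The summed level of the list was 522 and 918 CPM without and 1741 and 1634 CPM with induction, and 609 and 656 CPM in Control, which lay between the uninduced values. Ifi44, an interferon-induced protein of viral defence, rose from 9.56 and 13.2 to 85.3 and 83.3 CPM, with 17.1 and 16.1 CPM in Control (2.88, SE 0.28, adjusted p = 0.00234). Oasl2, of the oligoadenylate synthetase family, rose from 23.1 and 33.0 to 139 and 126 CPM, with 28.9 and 28.3 CPM in Control (2.23, SE 0.24, adjusted p = 0.00362). Ifit1, which binds foreign RNA, rose from 8.0 and 9.03 to 41.8 and 46.1 CPM (2.36, SE 0.32, adjusted p = 0.00801). Rtp4, Iigp1, Oas3, Oas2 and the RNA sensor gene Ddx58 completed the calls, each with both Control libraries below both induced ones.

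A regulator of that response was less clear. Irf7, the factor that amplifies it, was at 6.95 and 35.4 against 87.6 and 70.5 CPM (1.88, adjusted p = 0.141). The interferon receptor genes Ifnar1 and Ifnar2 were at log2 fold changes of 0.28 and 0.81, neither past the threshold. The uninduced library with fewer counts was the lower one for most of the list. The number of list members called higher was 4 in the fit of the 4 compared libraries, 6 without induced replicate 1, 11 without uninduced replicate 1 and 23 without uninduced replicate 2. Whether these genes changed with RBPJ or with the doxycycline treatment cannot be told apart, since the labels do not say that any other group was treated.

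**Figure D4:**
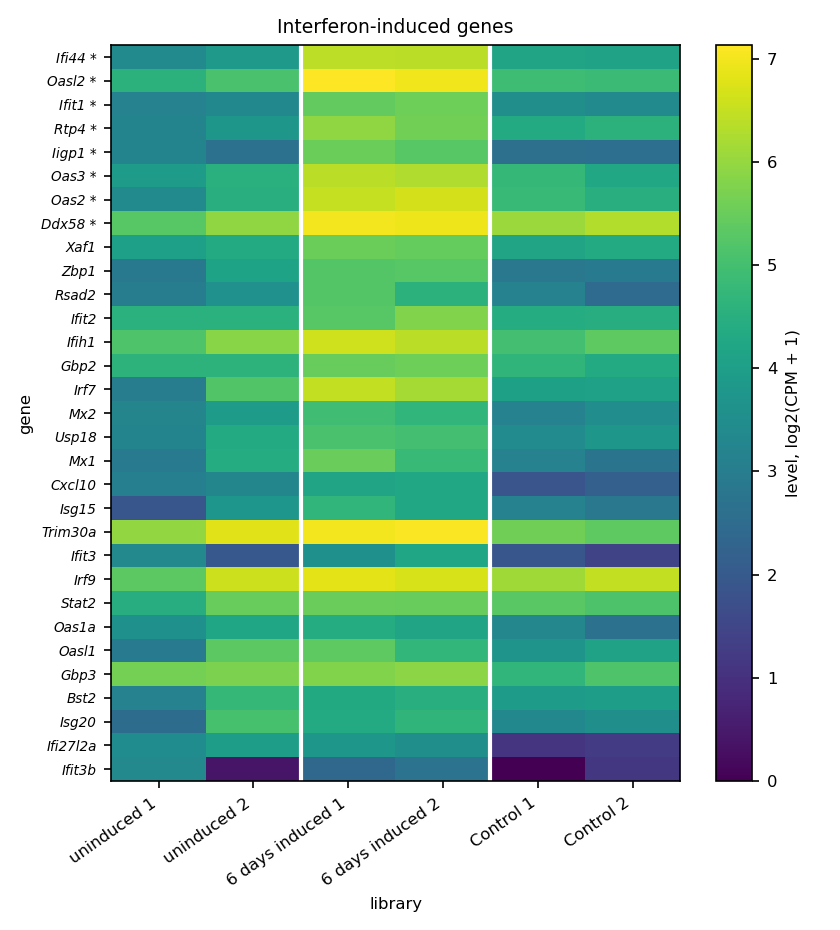
Level of 31 of the interferon-induced genes in each library as log2(CPM + 1), ordered by p from the top, with an asterisk at the 8 called higher. The columns of the 2 induced libraries are brighter than those of the uninduced and Control libraries for most genes, and the difference fades towards the lower rows.

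Of 24 tested genes of DNA replication, 6 fell and none rose. All 24 had a log2 fold change below 0, in 23 both induced libraries lay below both uninduced ones, beside 21.8% of all genes tested, and the median was -0.94. Rrm2, a subunit of ribonucleotide reductase that makes the precursors of DNA, fell from 70.1 and 99.2 to 29.6 and 25.2 CPM (-1.63, SE 0.25, adjusted p = 0.0161). Mcm2, of the replicative helicase, fell from 352 and 385 to 189 and 170 CPM (-1.04, SE 0.18, adjusted p = 0.0259). Cdt1 and Cdc6, which load that helicase, fell from 82.9 and 112 to 40.4 and 38.4 CPM and from 68.5 and 110 to 35.6 and 31.3 CPM. Rrm1 and Mcm5 were the other calls, and Control stood near the induced level in each, as for Mcm2 at 224 and 180 CPM. The mitosis and spindle list had a median of -0.75 with 19 of 20 below 0 and no call; Mki67, the proliferation marker, was at 1620 and 2123 against 1208 and 999 CPM (-0.76, adjusted p = 0.0758). No replication gene passed without induced replicate 1, without induced replicate 2 or in the fit of the 4 compared libraries, and 10 passed without uninduced replicate 1.

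Single regulators of the cell cycle fell with them. E2f8, a repressor of the E2F family, fell from 174 and 171 to 70.7 and 65.5 CPM (-1.34, SE 0.19, adjusted p = 0.0104). Ccnd1, cyclin D1, fell from 57.5 and 52.8 to 19.1 and 11.9 CPM (-1.83, SE 0.32, adjusted p = 0.0259), the only call among 12 tested D-type cyclins and inhibitors. Uhrf1, which keeps DNA methylation through replication, fell from 265 and 282 to 141 and 116 CPM, and Mybl2, an activator of late cell cycle genes, from 78.9 and 96.1 to 31.5 and 27.6 CPM (adjusted p = 0.0242 and 0.03), calls that were lost without either induced library. E2f8 missed the threshold without either induced library (0.075 and 0.104) and Ccnd1 without induced replicate 2 (0.166).

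Few genes of other blood lineages passed the test, as was so for all genes tested (1.96% in either direction). The neutrophil granule list had 13 of 14 tested members below 0 and a median of -1.97, and its summed level was 4363 and 3385 CPM without and 701 and 1567 CPM with induction, and 536 and 482 CPM in Control. Mpo, myeloperoxidase of the early granules, made up most of that and fell from 3712 and 2718 to 604 and 1300 CPM, with 495 and 420 CPM in Control (-1.76, SE 0.32, adjusted p = 0.0307). Elane, neutrophil elastase, was at 238 and 179 against 20.1 and 96.7 CPM (adjusted p = 0.163), and Prtn3, proteinase 3, at 124 and 115 against 12.2 and 46.1 CPM (adjusted p = 0.0987). In these 3 genes the induced libraries lay below the uninduced ones but disagreed with each other, replicate 1 being the lower. Mpo missed the threshold without induced replicate 1 (adjusted p = 0.12). In bulk RNA, fewer cells of a type and less RNA per cell cannot be told apart. The myeloid regulators were not lower as a group: of 21 tested the median was -0.11, and the 1 call, Tyrobp, an adaptor of myeloid and natural killer receptors, rose from 15.1 and 14.0 to 36.9 and 39.3 CPM (adjusted p = 0.0357, lost when either induced library was left out).

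The mast cell and erythroid lists held 1 call each. Hdc, the enzyme that makes histamine, fell from 64.9 and 72.2 to 17.0 and 21.7 CPM, with 9.21 and 9.55 CPM in Control (-1.83, SE 0.27, adjusted p = 0.0134). It was the only call among 17 tested mast cell and basophil genes, whose median was -1.08. The protease gene Cma1 was at 180 and 143 against 24.8 and 1.58 CPM, and Mcpt4 at 94.8 and 61.1 against 35.1 and 2.05 CPM (adjusted p = 0.0857 and 0.322), so the induced libraries differed from each other more than 10-fold. Of 20 erythroid genes 19 were below 0 with a median of -2.05, and Tfrc, the transferrin receptor of all dividing cells, was the only call, from 243 and 317 to 117 and 145 CPM (adjusted p = 0.0465). Car1, carbonic anhydrase of early red cells, was at 110 and 287 against 91.1 and 50.6 CPM (adjusted p = 0.142), and at 0.305 and 0 CPM in Control. Klf1, the erythroid master factor, was at 33.4 and 95.0 against 28.3 and 12.7 CPM (adjusted p = 0.229). Hdc missed the threshold without induced replicate 1 (0.116), and Tfrc without either induced library (0.372 and 0.11).

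**Figure D5:**
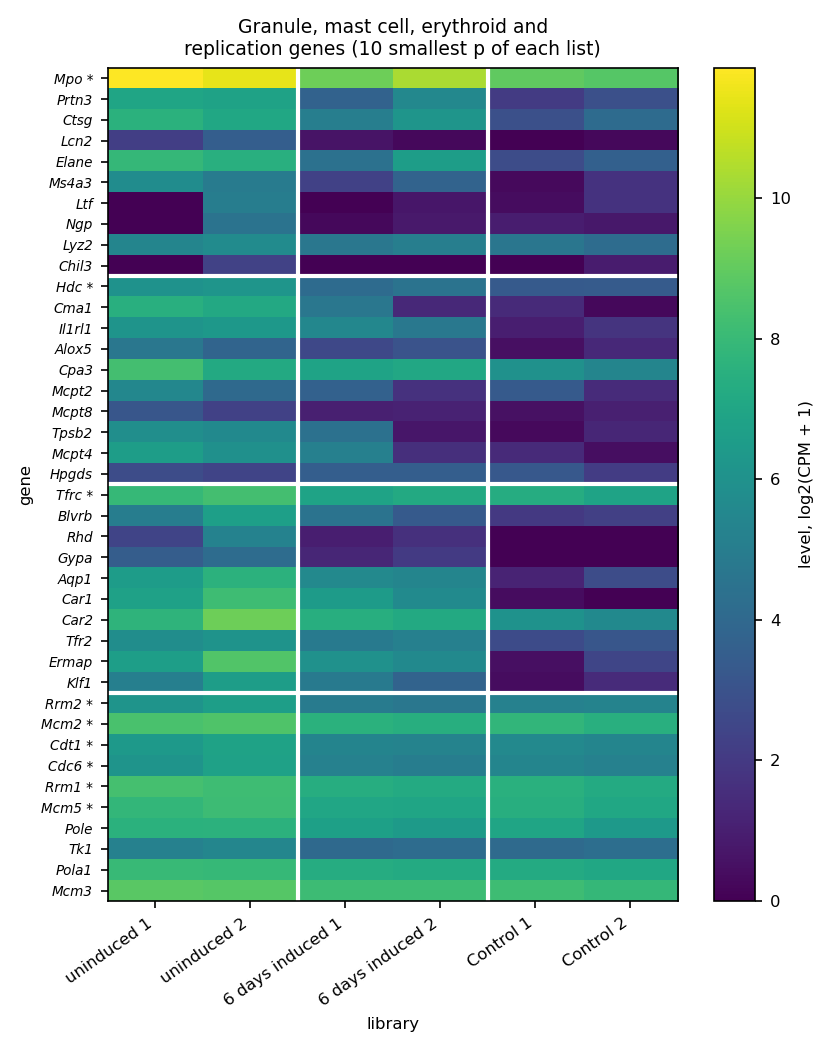
Level in each library, as log2(CPM + 1), of the 10 tested genes with the smallest p in the neutrophil granule, mast cell, erythroid and replication lists, from top to bottom, with an asterisk at calls. Most granule, mast cell and erythroid genes shown are brightest without induction, intermediate after induction and darkest in Control, while replication genes after induction are near their Control level.

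B-lineage genes differed mainly through 1 library. All 17 tested were below 0, with a median of -3.39, but none passed (lowest adjusted p = 0.131). Pax5, the B-cell identity factor, was at 5.39 and 249 CPM without and 0 and 11.6 CPM with induction, and Ebf1 was at 5.39 and 162 against 0.265 and 5.31 CPM. The summed level of the list was 89.4 and 1887 CPM in the uninduced libraries, 224 and 277 CPM in the induced and 301 and 247 CPM in Control, so only uninduced replicate 2 stood out. The part of B-lineage RNA in other results that rest on that library was not tested. The immunoglobulin genes, with 22 of 263 tested, had a median of -0.66 and no call. The MHC class II list had its highest level in the same library, with summed levels of 66.8 and 504 CPM without and 191 and 222 CPM with induction and no call among 10.

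Marker lists of other cells that a sorted thymus fraction could hold differed in their calls. Of 14 tested thymic stromal genes 1 rose, Pdgfrb, the platelet-derived growth factor receptor of mesenchymal cells, from 44.2 and 28.3 to 230 and 209 CPM, with 246 and 188 CPM in Control (2.61, SE 0.26, adjusted p = 0.0027). The stromal markers Col1a1, Col3a1, Pdgfra, Krt5, Krt8 and Epcam stayed at or below 2.90 CPM in all 4 libraries. Other members of the list stood higher without passing. Pecam1 was at 85.0 and 90.9 against 152 and 156 CPM (adjusted p = 0.0577). Ccl25 was at 15.1 and 22.7 against 26.8 and 21.5 CPM, and Kdr at 10.95 and 2.01 against 8.21 and 7.27 CPM. None of 11 conventional dendritic, 11 plasmacytoid dendritic or 13 megakaryocyte genes passed, with medians of -0.02, 0.61 and -0.41. Of all genes tested 1.96% passed, so lists this short would mostly hold no call at that share. Of the later thymocyte list, with 4 of 13 called, the calls included Trbc1, Trbc2 and Trdc, and the defining Cd4, Cd8a and Cd8b1 did not pass. Cd4 was at 1.22 and 3.57 against 8.57 and 4.47 CPM.

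Further genes that fell belong to amino acid, protein and nucleotide metabolism, and no list other than the stress response list below was drawn up for them. Of 18 tested integrated stress response genes 2 fell, with a median of -0.60: the amino acid transporter Slc7a5, from 93.9 and 107 to 38.6 and 39.2 CPM (-1.37, SE 0.22, adjusted p = 0.0178), and Shmt2, an enzyme of mitochondrial folate metabolism, from 129 and 115 to 61.5 and 49.0 CPM (adjusted p = 0.0357). The regulator Atf4 itself was at -0.17. Cad, which starts pyrimidine synthesis, fell from 216 and 270 to 107 and 105 CPM, and Mthfd1, of the cytosolic folate cycle, from 170 and 343 to 91.0 and 82.1 CPM (-1.57), or -0.96 without uninduced replicate 2. Calr, calreticulin, and Hsp90b1, both chaperones of the endoplasmic reticulum, fell from 1336 and 1305 to 626 and 748 CPM and from 756 and 692 to 342 and 340 CPM (adjusted p = 0.026 and 0.0123). Papss2, which makes the sulfate donor of the cell, had the lowest log2 fold change among the lower genes, from 25.9 and 14.2 to 1.24 and 1.86 CPM (-3.68, SE 0.59, adjusted p = 0.0189). Each of these calls was lost without induced replicate 1 and without induced replicate 2.

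The housekeeping lists held few calls, as did all genes tested (1.96% in either direction). The cytosolic ribosomal protein genes, 81 tested, had a median of -0.10 and no call, and the 77 mitochondrial ribosomal protein genes a median of -0.41 with 1 call, Mrpl12, lower. The 11 mitochondrially encoded messenger RNAs were all below 0 with a median of -0.53 and no call. Together such messenger RNAs took 1.35% and 1.68% of the counts in the uninduced libraries. Their share was 0.955% and 1.12% in the induced ones, so both uninduced libraries lay higher, replicate 2 the most. Of 22 immediate early and heat shock genes, which respond to cell handling, none passed, with a median of 0.21; the lowest adjusted p was 0.104, for Egr3.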

How the data were processed

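RNA was sequenced from 6 libraries of DN1a/b thymus cells, 2 per group, and groups and replicate numbers came from the sample titles. The authors deposited 1 table of raw read counts per library, with 47729 Ensembl genes; per the submitters' processing notes HISAT2, StringTie, HTSeq and the build mm10 were used. The sources used here give no strand setting, so overlapping genes cannot be told apart. Names came from GENCODE M21 on GRCm38 (47310 IDs matched).

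The test was run with edgeR 4.0.16 in R 4.3.3: filterByExpr (minimum count 10, total 15), TMM, and 1 quasi-likelihood fit of all 6 libraries with a mean per group (3 residual degrees of freedom), so Control libraries enter the estimate of spread. P-values were Benjamini-Hochberg adjusted over 18174 genes. The standard error is the log2 fold change divided by the square root of F. The fit was also run on simulated counts in which each gene had the same spread in every group. That setting held no unequal spread between groups and no difference in cell make-up between libraries. It therefore cannot show how the test performs under them. Folds against groups without counts are bounds at 3 counts per library and cover counting error only.

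The comparison, gene lists and tests were chosen with earlier results of these data known, and the libraries in it were taken by their labels. Named were Rbpj, tested Notch targets, Notch machinery past the threshold, up to 4 called members per list and direction (2 by p where none passed), and, among called protein-coding genes whose average log2 CPM was 2 or more and whose groups did not overlap, the 15 with the highest and lowest fold change, the 15 with the smallest p and the 10 most abundant, per direction. Other genes were named after their values were seen. Some genes that the rule or lists hold are not reported here by name; list counts include them. Total counts ranged from 5098927 to 12932928 per library. Replicate pairs differed by far more than sampling noise (chi-square per degree of freedom 16.4 to 54.1), so none was counted as a duplicate. Alternatives were other scalings, filters, DESeq2 1.42.0, the 4 compared libraries, the replicate block and leaving out each library.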

Additional observations from a re-analysis of the deposited data

How the results depend on the processing

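Rbpj kept its call and direction in all alternatives. The number of higher genes, 282, was 675 without a low-count filter, 746 with DESeq2 and 70 with the 4 compared libraries alone, and ranged from 156 to 951 with 1 library left out. The number of lower genes, 75, was 113 with upper-quartile factors, 314 without a filter, 125 with a stricter filter, 492 with DESeq2 and 1 with the 4 libraries, and ranged from 15 to 549 with 1 library left out. Higher genes made up 79.0% of the calls, 68.3% without a filter, 60.3% with DESeq2, 98.6% with the 4 libraries, 60.0% without uninduced replicate 1, and 91.2% and 92.5% without induced replicate 1 or 2. Without uninduced replicate 2 the median log2 fold change of all genes moved from -0.03 to 0.20, and changes in that fit are relative to it.

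Samples with the same number did not deviate together (correlation of deviations 0.02 between the compared groups), so the numbers do not pair them; with the replicate block 401 genes were higher and 133 lower, all 106 named calls remained, and Heyl and Hey2, near 0 CPM, turned to 1.42 and 1.10. No named call changed direction in any fit. Uncalled genes turned with 1 library left out, with log2 ranges of -4.04 to 0.93 for Igkc, -1.45 to 0.15 for Gfi1b, -2.81 to 0.96 for Selp, -0.96 to 0.12 for Tcf3, -0.23 to 1.87 for Xist, -0.28 to 3.19 for Uty, -2.77 to 5.47 for Heyl and -1.14 to 5.67 for Hey2. Low counts limit the joining segments and genes under about 10 CPM, and 2 libraries a group limit all values.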

Other observations

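Some genes had their highest levels in both induced libraries, above both other groups. St8sia6, a sialyltransferase, was at 9.56 and 17.2 CPM without and 69.2 and 73.1 CPM with induction, against 8.30 and 13.1 CPM in Control (2.40 on the log2 scale, SE 0.36, edgeR adjusted p = 0.0142). Rnf180, a ubiquitin ligase, was at 5.91 and 4.90 against 27.2 and 28.3 CPM, with 9.75 and 11.7 CPM in Control (2.36, SE 0.37, adjusted p = 0.0159). Both were singled out after their values were seen, and whether they changed with RBPJ or with doxycycline cannot be told apart.

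Other genes moved from the uninduced level towards that of Control. Capn5, a calpain protease, rose from 14.4 and 14.4 to 81.3 and 77.0 CPM, with 95.9 and 81.2 CPM in Control (2.46, SE 0.22, adjusted p = 0.00162). Bcl9l, a coactivator of beta-catenin, rose from 30.8 and 31.1 to 153 and 132 CPM, with 247 and 182 CPM in Control (2.20, SE 0.22, adjusted p = 0.00278). Among the genes that fell, Cnr2, the cannabinoid receptor of immune cells, went from 28.0 and 29.5 to 8.74 and 6.62 CPM, with 4.57 and 4.07 CPM in Control (-1.90, SE 0.37, adjusted p = 0.0357). Nfia, a nuclear factor with a role in erythroid fate, went from 53.9 and 92.4 to 21.3 and 21.4 CPM, with 7.61 and 14.2 CPM in Control (-1.78, SE 0.37, adjusted p = 0.0446). Capn5 and Bcl9l passed in every fit that left out 1 library, whereas the Cnr2 and Nfia calls were lost without either induced library, and that of Cnr2 also without Control replicate 2 (adjusted p = 0.0527).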
